A study of Caenorhabditis elegans with 14 samples.

Results

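The genes of fatty acid synthesis and desaturation in Caenorhabditis elegans were described here in a chromatin immunoprecipitation (ChIP) study of RNA polymerase II in starved and refed larvae. They were chosen by name from the gene coordinates and joined to the density tables by sequence name. All 10 names matched a single gene model each, out of 20315 gene models in all: pod-2, fasn-1, fat-1 to fat-7 and sbp-1.

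The animals were larvae of the wild-type strain N2. Embryos were left to hatch without bacteria and entered L1 arrest, the halt of development that starvation causes in newly hatched larvae. They were crosslinked with formaldehyde after 6 hr or 12 hr of arrest, or after 12 hr of arrest and 1 hr of feeding on the bacterium HB101 (recovery). Polymerase was immunoprecipitated from chromatin of whole larvae with the antibodies S2, 4H8 or 8WG16, all of which bind the repeated tail of its largest subunit. S2, by the catalogue number in the labels, is directed at the tail carrying phosphate on serine 2, which marks elongation. 8WG16 mainly recognises the tail without phosphate. The tables gave 4 libraries of 12 hr arrest (S2, 4H8 as replicates 1 and 2, and 8WG16), 4 of recovery with the same antibodies, 1 S2 library of 6 hr arrest and 1 pooled input of chromatin before immunoprecipitation. Arrest and recovery libraries of an antibody and replicate shared a flow cell, and are called a pair below. Values are read densities over the whole gene model in RPKM (reads per kilobase, scaled to the number of reads in the library) and, separately, over a 200 bp window at the most upstream transcription start site. They measure bound polymerase and not messenger RNA. Being scaled to the reads of each library, they are relative, so a change of polymerase common to all genes would not show. Rises and falls below are meant in this relative sense. In whole larvae, fewer nuclei of a tissue that carry polymerase on a gene and less polymerase per nucleus cannot be told apart.

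Long-chain fatty acids are built from acetyl-CoA. Acetyl-CoA carboxylase makes malonyl-CoA, and fatty acid synthase condenses it into a saturated chain. Desaturases then put in double bonds, first at a position that turns saturated into monounsaturated chains, and then at further positions that give the polyunsaturated fatty acids, which C. elegans, unlike mammals, makes without a dietary precursor. In C. elegans much of this work is done in the intestine and hypodermis, and SBP-1, the worm homologue of the mammalian sterol regulatory element binding proteins, together with the nuclear receptor NHR-49 and the mediator subunit MDT-15 is known to promote desaturase expression.

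The libraries held between 1322000 and 5863000 reads, and the pooled input 11905000. Median density over 1329 chemoreceptor genes, which are used in few cells and gave a measure of background, lay between 2.25 and 4.31 RPKM in the libraries of 12 hr arrest. In recovery it was 2.84 RPKM with S2, 3.08 RPKM with 4H8 replicate 1, 5.00 RPKM with 4H8 replicate 2 and 6.16 RPKM with 8WG16. These last 2 recovery libraries had more background than any library of arrest, so the main results are also given without them, and with each library scaled on the chemoreceptor genes. The scaling moved the median change of all genes on feeding from 0.08 to -0.26 on the log2 scale. Over the gene model it lowered the change of every gene described here that was tested, so rises shrank and falls grew. That a fall stayed called after it is therefore not a check on the background.

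The 10 genes differed widely in polymerase density. Over the 9 ChIP libraries the order of mean gene density was pod-2 (177 RPKM), fat-5 (157 RPKM), fat-6 (149.6 RPKM), fasn-1 (39.9 RPKM), fat-2 (38.2 RPKM), fat-1 (23.3 RPKM), fat-4 (18.1 RPKM), fat-3 (18.0 RPKM), sbp-1 (8.96 RPKM) and fat-7 (5.99 RPKM). The ranges over the libraries overlapped between neighbours in this order, except between fat-6 and fasn-1 and between fat-3 and sbp-1. Density of pod-2, fat-5 and fat-6 stood above the 97th percentile of all gene models in every ChIP library. In the pooled input pod-2 and fat-5 also ranked high, at percentiles 98.2 and 98.1, and fat-6 at 76.8, so rank alone does not show bound polymerase. Relative to input, the lowest ChIP density was 1.76 times for pod-2, 2.14 times for fat-5 and 5.08 times for fat-6. Density of fat-7 lay below the 56th percentile in all 9, and below its own input density.

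**Figure D1:**
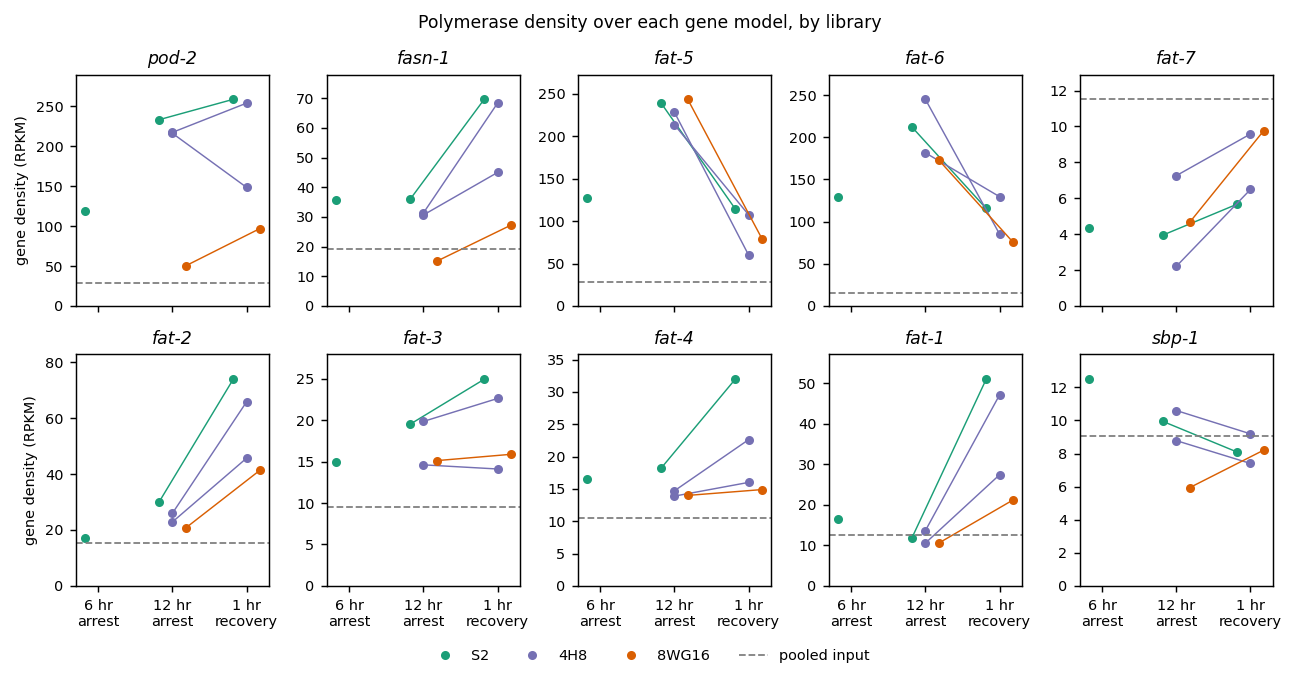
Gene density in RPKM (vertical axis, linear, scaled separately for each gene) of the 10 genes in each library of 6 hr arrest, 12 hr arrest and 1 hr recovery (horizontal axis). Points are single libraries coloured by antibody, lines join the arrest and recovery library of a pair, and the dashed line is the pooled input. For fat-5 and fat-6 all 4 lines run down, for fat-1, fat-2, fasn-1, fat-4 and fat-7 all 4 run up, and for fat-7 all points lie below the input.

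The feeding comparison asked which genes gained or lost polymerase density, relative to the reads of the library, within 1 hr of food. Among the desaturases, polymerase fell over fat-5 and fat-6, which make monounsaturated fatty acids, and rose over fat-2 and fat-1, which act further along the path to polyunsaturated ones. The split did not cover all desaturases, since fat-3 and fat-4, also on the polyunsaturated path, did not pass. fat-7, another gene of the monounsaturated step, was too low to be tested. Polymerase also rose over fasn-1. Of the 8 genes dense enough to be tested, 3 passed as higher (fat-1, fat-2, fasn-1), against a background of 22.9% of the 7214 gene models tested, and 2 as lower (fat-5, fat-6), against 15.1%. In either direction 38.0% of all models passed. Scaling on chemoreceptor genes turned this balance, with 384 models higher and 1604 lower in place of 1653 and 1090, and then 1 of the 8 genes was higher (fat-1) and 2 were lower (fat-5 and fat-6). The median change of the 8 genes was 0.26 on the log2 scale and that of all genes 0.08. The test was limma on log2(RPKM + 5) over the 8 libraries of 12 hr arrest and recovery with antibody as a term, two-sided, with Benjamini-Hochberg adjustment over all models tested and a threshold of 0.05. sbp-1 and fat-7, with a mean below 10 RPKM, were not tested. Each of the 5 calls was also made in all 8 fits that left out a single library, and without both recovery libraries of high background.

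pod-2 (II:1143914-1152705 in the WS190 annotation, plus strand) encodes acetyl-CoA carboxylase, the enzyme that commits acetyl-CoA to fatty acid synthesis. Its gene density in 12 hr arrest was 233 RPKM with S2, 218 and 216 RPKM with 4H8 and 50.3 RPKM with 8WG16. In recovery it was 259 RPKM with S2, 254 and 149 RPKM with 4H8 and 97.0 RPKM with 8WG16. Polymerase was thus dense over the gene in both states, the states overlapped, and the 8WG16 library of arrest stood far below the other 3. The change was 0.18 ± 0.24 (SE; 4 libraries per state) on the log2 scale with a 95% interval of -0.36 to 0.72 and a limma adjusted p of 0.562. Within pairs the changes were 0.15 with S2, 0.22 and -0.53 with 4H8 and 0.88 with 8WG16. The change was -0.26 after scaling on chemoreceptor genes, -0.36 after quantile normalization and -0.05 without either 8WG16 library, so no direction is given. With 4H8 alone pod-2 passed as lower under quantile normalization (-0.74, adjusted p = 0.0238, limma), but under no other setting. The difference between the 4H8 and 8WG16 responses was -1.04 ± 0.56 (SE), with an interval of -2.40 to 0.33 and a limma adjusted p of 0.974.

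fasn-1 (I:8975371-8984763, minus strand) encodes fatty acid synthase, the multifunctional enzyme that assembles the saturated chain. Density over the model in arrest was 35.9 RPKM with S2, 31.3 and 30.7 RPKM with 4H8 and 15.1 RPKM with 8WG16. The values after feeding were 69.6 RPKM with S2, 68.3 and 45.0 RPKM with 4H8 and 27.2 RPKM with 8WG16. Every antibody gave more polymerase after feeding, but the states overlapped, because the 8WG16 library of recovery lay below 3 libraries of arrest. The rise was 0.76 ± 0.14 (SE; 4 libraries per state, limma adjusted p = 0.00353), and the ratio of mean densities was 1.86. It was 0.96 (adjusted p = 0.0014, limma) without the 2 recovery libraries of high background, but 0.37 (adjusted p = 0.399, limma) after scaling on chemoreceptor genes, where the call was lost.

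fat-5 (V:17724972-17726733, plus strand) encodes the delta-9 desaturase that acts on palmitic acid. Its gene density in arrest was 239 RPKM with S2, 214 and 228 RPKM with 4H8 and 243 RPKM with 8WG16. In recovery it was 114 RPKM with S2, 108 and 60.1 RPKM with 4H8 and 79.5 RPKM with 8WG16. All 4 libraries of arrest were close together and lay above all 4 of recovery. Mean density fell from 231 ± 13.3 to 90.4 ± 25.2 RPKM (SD, n = 4 per state), a ratio of 2.56. The change was -1.35 ± 0.20 (SE) with a limma adjusted p of 0.00134. It was -1.02 (adjusted p = 0.00154, limma) without the 2 recovery libraries of high background and -1.78 (adjusted p = 0.00014, limma) after scaling on chemoreceptor genes. Only 1.46% of the models tested had a change as negative. After feeding, fat-5 still held 2.14 to 4.07 times its input density, from 7.60 to 8.66 times in 12 hr arrest.

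fat-6 (IV:11913661-11915766, minus strand) encodes a delta-9 desaturase that acts on stearic acid to give oleic acid. In arrest its gene density was 212 RPKM with S2, 182 and 245 RPKM with 4H8 and 173 RPKM with 8WG16. After feeding it was 116 RPKM with S2, 129.6 and 85.3 RPKM with 4H8 and 75.8 RPKM with 8WG16. The states did not overlap, and every library of recovery lay below every library of arrest. The change was -0.98 ± 0.18 (SE; 4 libraries per state, limma adjusted p = 0.00389), from 203 ± 32.7 to 102 ± 25.2 RPKM (SD, n = 4 per state). It was -0.75 (adjusted p = 0.0188, limma) without the 2 recovery libraries of high background and -1.41 (adjusted p = 0.00323, limma) after scaling on chemoreceptor genes.

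fat-7 (V:7151347-7153127, minus strand) encodes the second stearic acid desaturase, which is known to act redundantly with fat-6. The density over its model in arrest was 3.95 RPKM with S2, 2.21 and 7.26 RPKM with 4H8 and 4.66 RPKM with 8WG16. The libraries of recovery had 5.67 RPKM with S2, 6.49 and 9.58 RPKM with 4H8 and 9.77 RPKM with 8WG16. All of these lay below the 11.5 RPKM of the input, with only 11 to 100 reads per library over the gene, so fat-7 was not enriched over input in any library. Its density was nonetheless above the chemoreceptor median of the same library in 8 of the 9 ChIP libraries. With 4H8 in arrest it was 7.26 RPKM (95% Poisson interval 5.54 to 9.34, counting error only) against 3.13 RPKM in replicate 2, but 2.21 against 2.25 RPKM in replicate 1. In the input fat-7 also lay above that median, at 11.5 against 8.5 RPKM, so this position alone is not read as bound polymerase. The pair changes of 0.25 with S2, 0.67 and 0.25 with 4H8 and 0.61 with 8WG16 accompanied the higher chemoreceptor background of the same recovery libraries, and the part of that background in them was not tested. The paralogues thus stood at opposite ends of the range, with 173 to 245 RPKM over fat-6 and 2.21 to 7.26 RPKM over fat-7 in the libraries of 12 hr arrest. How the authors treated reads that match both paralogues is not given in the sources used here, so reads could have been assigned between them.

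fat-2 (IV:13323826-13326369, plus strand) encodes the delta-12 desaturase that turns oleic into linoleic acid, the entry to the polyunsaturated fatty acids. Its gene density in arrest was 30.0 RPKM with S2, 26.0 and 22.9 RPKM with 4H8 and 20.7 RPKM with 8WG16. In recovery it was 73.9 RPKM with S2, 65.8 and 45.7 RPKM with 4H8 and 41.3 RPKM with 8WG16. Every library of recovery lay above every library of arrest. The rise was 1.02 ± 0.14 (SE; 4 libraries per state, limma adjusted p = 0.000789), and the ratio of means was 2.28. It was 1.23 (adjusted p = 0.000758, limma) without the 2 recovery libraries of high background. After scaling on chemoreceptor genes it was 0.63, still upward, with a limma adjusted p of 0.130, so that the call was lost.

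fat-1 (IV:13315610-13318752, plus strand) encodes the omega-3 desaturase, an enzyme that mammals lack. In arrest its gene density was 11.9 RPKM with S2, 13.6 and 10.6 RPKM with 4H8 and 10.6 RPKM with 8WG16, all within 0.837 to 1.08 times the input. After feeding it was 51.0 RPKM with S2, 47.1 and 27.4 RPKM with 4H8 and 21.2 RPKM with 8WG16. All 4 libraries of recovery lay above all 4 of arrest, and above the input by 1.68 to 4.04 times. The rise was 1.25 ± 0.19 (SE; 4 libraries per state, limma adjusted p = 0.00157), with a ratio of means of 3.14. It was 1.66 (adjusted p = 0.00048, limma) without the 2 recovery libraries of high background and 0.92 (adjusted p = 0.00132, limma) after scaling on chemoreceptor genes. fat-1 was the only gene of the 10 that stood at the level of its input in 12 hr arrest and passed as higher after feeding.

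fat-3 (IV:9803000-9806095) and fat-4 (IV:9799401-9802194) encode the delta-6 and delta-5 desaturases that lead to the longer polyunsaturated fatty acids. Their models lie 806 bp apart on the plus strand, with fat-4 first. fat-3 had 19.5 RPKM with S2, 19.9 and 14.6 RPKM with 4H8 and 15.1 RPKM with 8WG16 in arrest, and 24.9, 22.6, 14.1 and 15.9 RPKM in recovery in the same order. fat-4 had 18.2, 14.7, 13.9 and 14.0 RPKM in arrest and 31.9, 22.6, 16 and 14.9 RPKM in recovery, in that order. Both genes lay above their input in all 8 libraries, and for both the states overlapped. The change of fat-3 was 0.11 with a 95% interval of -0.20 to 0.43 (limma adjusted p = 0.528), and it was -0.23 after scaling on chemoreceptor genes. The change of fat-4 was 0.34 with an interval of 0.06 to 0.63 (limma adjusted p = 0.0607). fat-4 passed in the fit with the pairs as a block (adjusted p = 0.0442, limma), without 4H8 replicate 2 of recovery (0.43, adjusted p = 0.0334), without either 8WG16 library (0.44, adjusted p at most 0.0496) and without both recovery libraries of high background (0.58, adjusted p = 0.00649). Its change after scaling on chemoreceptor genes was 0.02.

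sbp-1 (III:11428083-11442447, minus strand) encodes the transcription factor that promotes expression of lipid synthesis genes. Its gene density in arrest was 9.94 RPKM with S2, 8.78 and 10.6 RPKM with 4H8 and 5.94 RPKM with 8WG16. Recovery gave 8.09 RPKM with S2, 7.40 and 9.19 RPKM with 4H8 and 8.21 RPKM with 8WG16. The states overlapped, and these 8 values lay between 0.654 and 1.17 times the input of 9.08 RPKM. The S2 library of 6 hr arrest was higher, at 12.5 RPKM (95% Poisson interval 11.4 to 13.7, counting error only) or 1.38 times the input. The model is the longest of the 10, at 14365 bp.

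**Figure D2:**
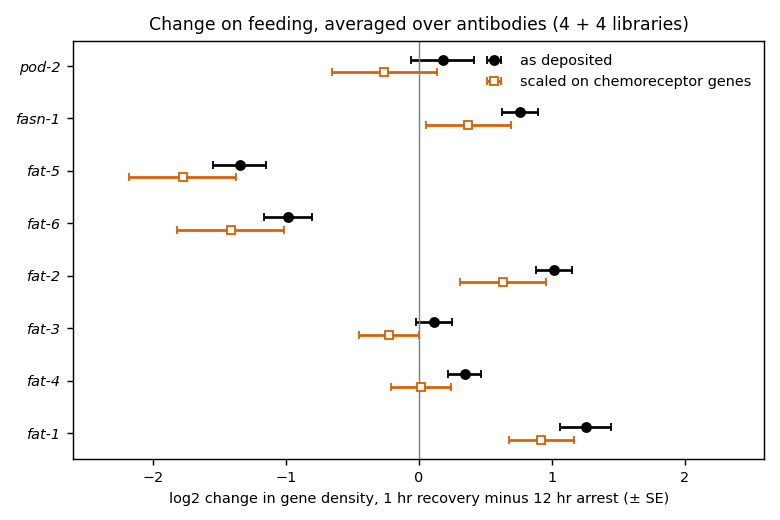
Change in gene density on feeding (horizontal axis, log2 scale, 1 hr recovery minus 12 hr arrest, limma estimate over 4 + 4 libraries) for the 8 genes tested. Points are estimates and bars ± 1 SE. Black circles are densities as deposited, and open squares are densities scaled on chemoreceptor genes, which lie lower for all 8 genes, so that pod-2 and fat-3 change sign while fat-5, fat-6 and fat-1 stay on their side.

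Across the 4 pairs the genes that passed had the same sign in each, as did fat-4 (0.67, 0.49, 0.15 and 0.07) and fat-7, which did not pass or was not tested. fat-5 changed by -1.03, -0.96, -1.84 and -1.56, and fat-6 by -0.85, -0.47, -1.47 and -1.14, with S2, 4H8 replicates 1 and 2, and 8WG16 in that order. In both, the pairs of 4H8 replicate 2 and 8WG16, which hold the recovery libraries of high background, gave the larger falls. fat-1 changed by 1.73, 1.48, 1.06 and 0.75, and in the opposite way these 2 pairs gave its smaller rises. fat-2 changed by 1.17, 1.19, 0.86 and 0.85, and fasn-1 by 0.87, 1.01, 0.49 and 0.68. Among all models tested 35.0% were higher in recovery in all 4 pairs and 21.8% lower. Without overlap between the states were 4 of the 8 genes tested (fat-1, fat-2, fat-5 and fat-6), against a background of 24.7% of models.

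**Figure D3:**
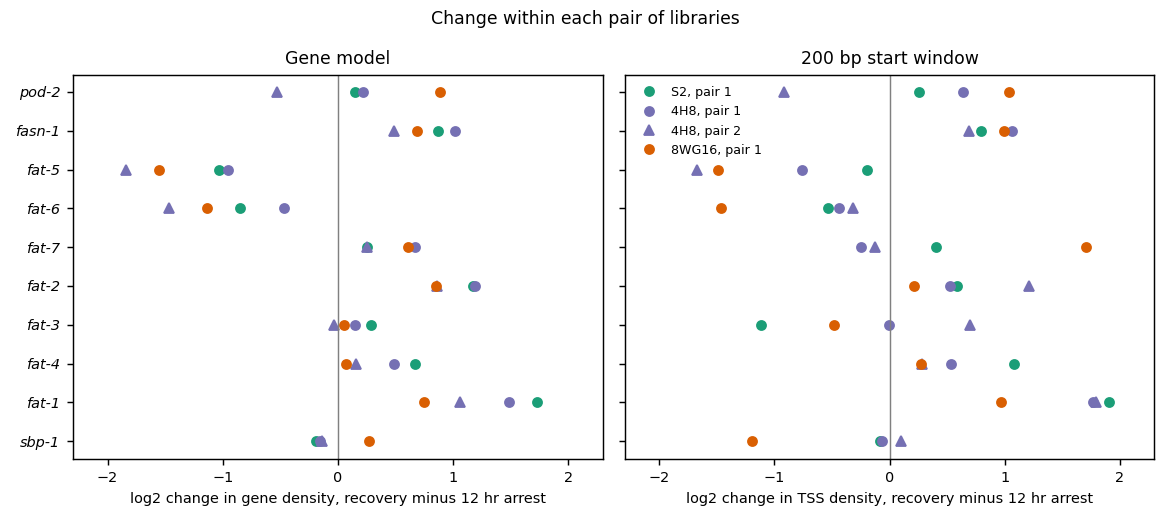
Change within each of the 4 pairs of libraries (horizontal axis, log2 of recovery over 12 hr arrest after adding 5 RPKM) for the 10 genes, over the gene model on the left and over the 200 bp start window on the right. Each point is a pair, coloured by antibody, and the triangle is 4H8 replicate 2. Over the gene model fat-5 and fat-6 lie left of 0 and fat-1, fat-2, fasn-1, fat-4 and fat-7 right of 0 in all 4 pairs, and in the start window the points of most genes are spread wider.

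With 4H8 alone, the antibody with replicates, fat-1 and fat-2 passed as higher and fat-5 as lower, that is 3 of 8 genes tested, against a background of 14.0% of the 7240 models tested, 7.85% higher and 6.13% lower. Mean gene density of fat-1 went from 12.1 ± 2.18 to 37.3 ± 13.9 RPKM (SD, n = 2 per state), a change of 1.27 ± 0.24 (SE, limma adjusted p = 0.0225). That of fat-2 went from 24.4 ± 2.20 to 55.7 ± 14.2 RPKM (SD, n = 2), a change of 1.03 ± 0.22 (SE, limma adjusted p = 0.0309). That of fat-5 went from 221 ± 10.5 to 83.8 ± 33.5 RPKM (SD, n = 2), a change of -1.40 ± 0.33 (SE, limma adjusted p = 0.0405). The other genes tested did not pass. fat-6 changed by -0.97 (limma adjusted p = 0.0932), fasn-1 by 0.75 (limma adjusted p = 0.084), fat-4 by 0.32, fat-3 by 0.06 and pod-2 by -0.15. In the fit with the pairs as a block 2508 models passed instead of 1012, and fasn-1 did so too (adjusted p = 0.0225, limma). These calls rest on few libraries. fat-1 was lost without 4H8 replicate 1 of recovery (adjusted p = 0.0593, limma), fat-2 without that library (0.0605) or 4H8 replicate 2 of arrest (0.0612), and fat-5 without 4H8 replicate 1 (0.153) or 2 (0.137) of arrest, while fasn-1 passed without 4H8 replicate 2 of recovery (0.0244). After scaling on chemoreceptor genes none of the 8 passed, with changes of 0.85 for fat-1, 0.55 for fat-2 and -1.94 for fat-5.

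The response to feeding was also compared between antibodies. Between 4H8 and S2, 2 of 7240 models (0.0276%) differed, 1 in each direction (0.0138%), neither of them a gene described here, and between 4H8 and 8WG16 none did by limma, with 392 models at an unadjusted p under 0.05. The 4H8 response minus the S2 response was -0.46 for fat-1, -0.37 for fat-5, -0.35 for fat-4, -0.30 for pod-2, -0.23 for fat-3, -0.14 for fat-2, -0.12 for fat-6 and -0.12 for fasn-1 on the log2 scale. The intervals were wide, for example -1.75 to 1.02 for fat-5. The 4H8 response minus the 8WG16 response was -1.04 for pod-2 and lay between 0.00 for fat-3 and 0.52 for fat-1 in the other 7 genes, fat-4 (0.25), fat-2 (0.18), fat-6 (0.17), fat-5 (0.16) and fasn-1 (0.07) among them. The fall of fat-5 and the rise of fat-1 were therefore not shown to differ between antibodies, nor shown to be alike. S2 and 8WG16 had a single library per state, which the fit assumed to vary like the 4H8 replicates.

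Polymerase in the start window was a separate measure, with far fewer reads. Of 9 genes tested, fat-1 and fasn-1 passed as higher and fat-5 as lower, against a background of 6.99% of 6808 models higher and 21.7% lower, 28.7% in either direction. The median change of the 9 genes was 0.25 and that of all models -0.15. Start window density of fat-1 was 17.6 RPKM with S2, 16.1 and 7.54 RPKM with 4H8 and 20.7 RPKM with 8WG16 in arrest, and 79.8, 66.7, 38.4 and 45.4 RPKM in recovery in the same order. The states did not overlap. The rise was 1.61 ± 0.28 (SE; 4 libraries per state, limma adjusted p = 1e-05), and it was 2.04 without the 2 recovery libraries of high background and 1.25 after scaling on chemoreceptor genes, with the call kept in both.

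At fasn-1 the start window held 17.6 RPKM with S2, 10.7 and 14.0 RPKM with 4H8 and 8.88 RPKM with 8WG16 in arrest, and 34.2, 27.8, 25.6 and 22.7 RPKM in recovery. Here the states did not overlap, unlike over the gene model. The rise was 0.89 ± 0.27 (SE; 4 libraries per state, limma adjusted p = 0.0106). It did not pass without both recovery libraries of high background (0.87, adjusted p = 0.0568, limma) or after scaling on chemoreceptor genes (0.54, adjusted p = 0.214, limma).

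At fat-5 the start window held 36.3 RPKM with S2, 41.1 and 46.3 RPKM with 4H8 and 115 RPKM with 8WG16 in arrest, and 30.9, 22.2, 11.1 and 37.8 RPKM in recovery. The 8WG16 library of arrest stood far above the other 3, and the states overlapped through the 8WG16 library of recovery. The change was -1.03 ± 0.27 (SE; 4 libraries per state, limma adjusted p = 0.00265), but -0.56 (adjusted p = 0.225, limma) without the 2 recovery libraries of high background. After scaling on chemoreceptor genes it was -1.41 and passed.

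The start windows of the other genes did not pass. fat-2 had 22.6 to 38.5 RPKM in arrest and 45.4 to 58.8 RPKM in recovery, without overlap, and changed by 0.63 (limma adjusted p = 0.0584). It passed with the pairs as a block (adjusted p = 0.0492, limma) and without either 8WG16 library (0.77, adjusted p at most 0.0333, limma). fat-6 changed by -0.69 (limma adjusted p = 0.081) and passed after scaling on chemoreceptor genes (adjusted p = 0.011, limma). Its window met the density filter only through arrest, with 19.2 RPKM there and 9.69 RPKM in recovery, so that call is not read as a result. The changes were 0.54 for fat-4, -0.23 for fat-3, 0.25 for pod-2 and -0.31 for sbp-1. fat-7, not tested, had no read in the start window in the S2 and 8WG16 libraries of 12 hr arrest, which allows densities of up to 3.51 and 8.88 RPKM (3 reads, counting error only).

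The 5' bias set the start window against the gene model. In the authors' deposited values, a ratio of the enrichments over input, fat-6 was low at its start throughout, with 0.0654 to 0.203 in the 9 libraries, between the 7.09th and 18.5th percentile of models of at least 1000 bp. In single libraries others were lower still, as in 12 hr arrest with 8WG16, where pod-2 had 0.166 and fat-7, with no read in its window, was at 0. fat-5 had 0.299 to 0.416 with S2 and 4H8 in arrest and 0.933 with 8WG16. sbp-1 had the highest deposited value of any of the 10 genes, 3.48 with 8WG16 in 12 hr arrest, from a window of 8 reads. The 8WG16 library had the highest bias of the 4 libraries of 12 hr arrest in 8 of the 9 genes tested for bias, all but pod-2, against a background of 42.1% of models tested. In this single library the windows of those 8 genes held from 3 reads (fasn-1) to 39 reads (fat-5), and that of pod-2 held 1. No difference between antibodies is therefore read from the count. On feeding, the log2 ratio of start window to gene model passed in none of the 9 genes tested by limma, with none at an unadjusted p under 0.05, against a background of 16% of 7561 models, 1.55% higher and 14.4% lower. The changes were -0.39 for fat-2, -0.34 for fat-3, -0.26 for sbp-1, 0.07 for pod-2, 0.12 for fasn-1, 0.20 for fat-4, 0.29 for fat-6, 0.32 for fat-5 and 0.35 for fat-1, with a median of 0.12 for the 9 genes and -0.20 for all models. fat-5 passed with a pseudocount of 20 RPKM (0.46, adjusted p = 0.0385, limma) and after quantile normalization (0.97, adjusted p = 0.0393, limma).

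**Figure D4:**
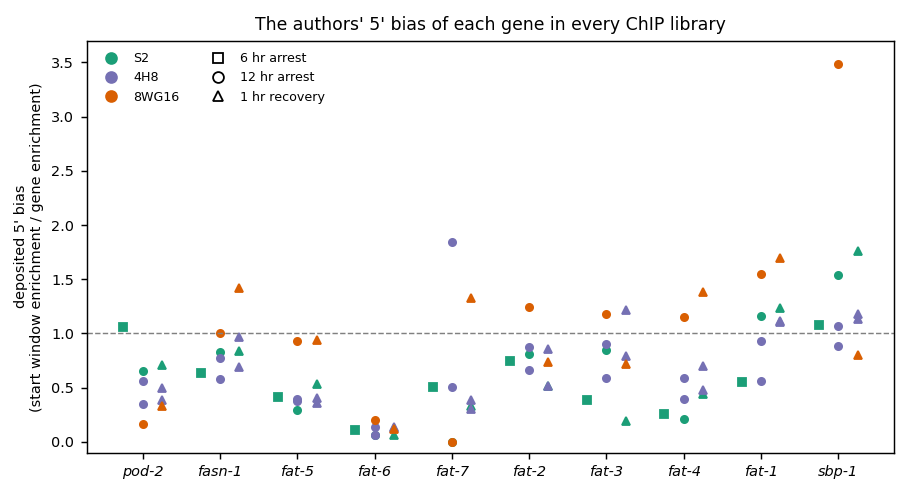
The authors' deposited 5' bias (vertical axis, linear ratio of start window enrichment to gene enrichment) of the 10 genes in the 9 ChIP libraries. Colours are antibodies and symbols are states, and the dashed line marks equal enrichment. All values of fat-6 lie between 0.0654 and 0.203, and the highest value is sbp-1 with 8WG16 in 12 hr arrest, 3.48.

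The 8WG16 library of 12 hr arrest stood apart from the other antibodies over pod-2. It held 50.3 RPKM over pod-2 against a mean of 222 RPKM in the other 3 libraries of arrest, a log2 difference of -2.04, lower than all but 0.111% of models tested. Over fasn-1 the difference was -0.90, at the 3.69th percentile. sbp-1, below the density for testing, had -0.43. Over fat-5 the difference was 0.10, and over fat-6 it was -0.28. The library was the lowest of the 4 in 4 of the 8 genes tested (pod-2, fasn-1, fat-2 and fat-6), near the background of 53.3% of models tested, and also in sbp-1.

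During arrest, S2 alone was used at 6 hr and 12 hr. Gene density of fat-5 was 128 RPKM at 6 hr and 239 RPKM at 12 hr, that of fat-6 129 and 212 RPKM, and that of pod-2 118.6 and 233 RPKM. fat-2 had 17.3 RPKM at 6 hr and 30.0 RPKM at 12 hr, while fat-1 had 16.5 and 11.9 RPKM and fasn-1 35.9 RPKM at both times. None of the 8 genes and none of the 7240 models passed by limma, with 500 models and none of the 8 genes at an unadjusted p under 0.05. The changes were 0.88 for fat-5 with a 95% interval of -0.25 to 2.01, 0.70 for fat-6, 0.95 for pod-2, 0.65 for fat-2, 0.30 for fat-3, 0.10 for fat-4, 0.00 for fasn-1 and -0.34 for fat-1. The 6 hr library was sequenced on another flow cell, so time and flow cell cannot be told apart. With S2, the density of fat-5 and fat-6 after 1 hr of feeding was 114 and 116 RPKM, against 128 and 129 RPKM at 6 hr of arrest. Each value is from 1 library. The chemoreceptor median of the 6 hr library was also higher, 3.62 RPKM against 2.84 RPKM in recovery. This difference was not tested, so no order of the 2 states is given.

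Other steps of fatty acid metabolism changed in both directions on feeding. Of the elongation genes, whose enzymes lengthen the chains between desaturation steps, 9 of 11 were tested: 1 rose and 2 fell, against 22.9% and 15.1% of all models, and 6 did not pass, with a median change of 0.06. elo-2, which encodes the elongase of palmitic acid, rose by 0.95 ± 0.17 (SE, limma adjusted p = 0.00324) from 36.4 to 76.6 RPKM. elo-6, an elongase needed for branched-chain fatty acids, changed by -0.83 (limma adjusted p = 0.0308) from 74.0 to 42.1 RPKM, and elo-7 by -0.36 (limma adjusted p = 0.0348). elo-1, the elongase of the polyunsaturated path, went from 37.3 to 52.6 RPKM without passing (0.41, limma adjusted p = 0.0519). After scaling on chemoreceptor genes none of the elongation genes was called higher and 3 were called lower, against 384 and 1604 of all 7214 models.

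Of the genes for precursor supply and cofactors 8 of 9 were tested: 3 rose and 2 fell, against 22.9% and 15.1% of all models, and 3 did not pass, with a median of 0.34. acs-1, an acyl-CoA synthetase needed for branched-chain fatty acids, rose by 0.93, and cytb-5.2 and cytb-5.1, which encode the cytochrome b5 type of electron donor for desaturases, rose by 0.70 and 0.43. pyc-1, pyruvate carboxylase, changed by -0.75, and mlcd-1, malonyl-CoA decarboxylase, which removes the product of POD-2, by -0.71. The limma adjusted p-values of these 5 genes lay between 0.00104 and 0.0198. mlcd-1, at 18.5 RPKM in arrest and 9.4 RPKM in recovery, passed the density filter only through arrest. No result is therefore read from the number that fell. acly-1, an ATP citrate lyase, had 0.25 (limma adjusted p = 0.0633). With the scaling on chemoreceptor genes 1 was called higher and 2 lower, mlcd-1 among them, against 384 and 1604 of all 7214 models.

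Of the regulators of desaturases and SBP-1, 8 of 9 were tested: none rose and 2 fell, against 22.9% and 15.1% of all models, and 6 did not pass, with a median of -0.22. aak-2, a catalytic subunit of AMP-activated kinase, the cell's energy sensor, changed by -1.08 ± 0.09 (SE, limma adjusted p = 7.6e-05) from 32.1 to 12.6 RPKM. nhr-49, which is known to promote expression of fat-5, fat-6 and fat-7, changed by -0.53 (limma adjusted p = 0.0103) from 31.9 to 20.7 RPKM. mdt-15, the mediator subunit that acts with NHR-49 and SBP-1, had -0.37 (limma adjusted p = 0.0792), with 78.6 RPKM in arrest and 58.3 RPKM in recovery. Both aak-2 and nhr-49 were again called lower after that scaling, which called 1604 of all 7214 models lower.

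Of the genes that put fatty acids into phospholipids and triglycerides 14 of 24 were tested: 6 rose and 2 fell, against 22.9% and 15.1% of all models, so that the share lower was near the background, and 6 did not pass, with a median of 0.23. The largest rises were those of dgat-2, a diacylglycerol acyltransferase of triglyceride synthesis (1.11), sams-1, an S-adenosylmethionine synthetase (0.88), and pmt-2, a phosphoethanolamine methyltransferase (0.69), with limma adjusted p-values from 0.00129 to 0.00371. acl-4 changed by -0.50 and acl-14 by -0.33. With that scaling 1 gene was called higher and 3 lower, near the background of 384 and 1604 of all 7214 models.

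Several markers of the intestine rose on feeding as well, while the share of hypodermal markers that passed was near the background. Of 8 intestinal markers tested 6 rose and none fell, against 22.9% and 15.1% of all models, with a median change of 0.82. After scaling on chemoreceptor genes 3 were called higher, against 384 of all 7214 models, and the median was 0.53. opt-2, at 6.77 RPKM in arrest and 16.3 RPKM in recovery, passed the density filter only through recovery, so no excess over the background is read from these counts. mtl-2, also counted as higher, reached at most 20.7 RPKM in these libraries, below its input of 21.3 RPKM. ifb-2 changed by 0.007, and elt-7 and ges-1 were too low to be tested. The summed density of all 10 intestinal markers went from between 157 and 214 RPKM in arrest to between 653 and 895 RPKM in recovery. Without asp-1, a gut protease that took most of that sum in recovery, the range went from 120.0 to 139 RPKM up to 227 to 289 RPKM. elt-2, the transcription factor that defines the intestine, changed by 0.13 (limma adjusted p = 0.299). Its means of 13.1 RPKM in arrest and 14.8 RPKM in recovery lay below its input of 17.3 RPKM, so nothing is read from this value. Of 7 hypodermal markers 2 rose and none fell, of 5 muscle markers none rose and 1 fell, of 4 pharyngeal markers 1 rose and 1 fell, and of 4 neuronal markers none rose and 1 fell. The 2 hypodermal ones, dpy-13 and col-19, had mean densities of 28.0 and 21.9 RPKM in recovery, below their inputs of 32.7 and 30.65 RPKM. With that scaling no marker of these 4 tissues was called higher, against 384 of all 7214 models. None of the hypodermis, 1 of muscle, 2 of the pharynx and 2 of neurons were called lower, against 1604 models. Of the neuronal ones rab-3, at 12.7 RPKM in arrest and 9.79 RPKM in recovery, passed the density filter only through arrest. Of 5 germline markers cgh-1 went from 37.9 to 72.3 RPKM (limma adjusted p = 0.00204), pgl-1 and glh-1 passed the density filter only through recovery, and 2 were too low to be tested, so no count is read from that list. No marker on these lists was at 0 in all ChIP libraries. The part of these tissue genes in the changes of fat-1, fat-2, fasn-1, fat-5 and fat-6 was not tested.

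Genes whose models lie within 1000 bp could share reads with those described. twk-42 ends 34 bp beyond the end of fat-5 on the opposite strand, and changed in the same direction, by -0.50 ± 0.15 (SE, limma adjusted p = 0.0309), at 43.1 RPKM in arrest and 29.4 RPKM in recovery. Y47D3B.6 overlaps the end of sbp-1 by 146 bp on the opposite strand, with 112 RPKM in arrest and 72.7 RPKM in recovery (-0.52, limma adjusted p = 0.0323), many times the density of sbp-1 itself. dct-15 lies 295 bp beyond fat-3, VZK822L.2 446 bp beyond fat-6, F10D2.8 674 bp beyond fat-7 and F32H2.12 804 bp beyond fasn-1. These 4 were too low to be tested, with means between 3.69 and 11.6 RPKM in each state. ChIP reads carry no strand of transcription, so polymerase on opposite strands cannot be told apart.

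The likeness of patterns was measured as Pearson's r of log2(RPKM + 5) over the 9 ChIP libraries, which share states, antibodies and background, and is given as a description. Among the 8 tested genes the closest were fat-5 and fat-6 (r = 0.94) and fat-1 and fat-2 (r = 0.92), while fat-1 and fat-5 had r = -0.69. pod-2 followed fasn-1 (r = 0.78) more than fat-5 (r = 0.00). The models most like fat-1, which had the largest rise of the 10 genes, were hsp-60 (r = 0.99), C06E7.1 (r = 0.98) and pmt-2 (r = 0.98). Those most like fat-5, which had the largest fall, were ZK637.2 (r = 0.98), hacd-1 (r = 0.97) and B0361.2 (r = 0.97). Of these, hacd-1 had a density as high as fat-5 in arrest, 243 RPKM, and 43.3 RPKM in recovery.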

How the data were processed

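The authors deposited read densities in RPKM over WS190 gene models and over a 200 bp start window. Per the file headers, the authors' deposited fold enrichment divides each density by that of the input, replaced by the median input where lower, and their 5' bias is the ratio of start window to gene enrichment. The aligner is not given in the sources used here. Together 14 samples filled 10 columns: input was taken as pooled, and whether the S2 column at 6 hr holds 1 or 2 samples is not stated.

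Depth was recovered from the steps of low densities. Between 26 and 105 reads covered the median gene model in the ChIP libraries, and 2 to 8 the median start window. Limits cover counting error only.

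Densities were tested as log2(RPKM + 5), which understates changes of low genes, with limma 3.58.1 in R 4.3.3 (lmFit, eBayes with a trend, two-sided, Benjamini-Hochberg adjustment, threshold 0.05) in models with a mean of at least 10 RPKM. The 5' bias needed models of at least 1000 bp. The 8 libraries of 12 hr arrest and recovery were fitted with antibody as a term, and all 9 ChIP libraries as group means for the other comparisons. The code was tested on simulated data. Python 3.11.15 with pandas 2.3.3, numpy 2.4.6, scipy 1.17.1 and matplotlib 3.10.9 made tables and plots.

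Arrest and recovery libraries of a replicate shared a flow cell per the labels, which pairs them. The deviations of the 4H8 replicates in arrest and recovery correlated over 7240 models with r = 0.334. Antibody and flow cell cannot be told apart. Except for the 4H8 pairs, nothing says that libraries came from separate cultures, so p-values measure only the spread between libraries, which may be technical.

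The genes, pathway lists and markers were chosen with earlier results of these data known. All 10 genes are named. Of a pathway list, all genes that passed are named, or the 3 largest changes each way where more than 6 passed, with up to 2 that did not pass. Other settings were a pseudocount of 1 or 20 RPKM, no filter, quantile normalization, scaling on chemoreceptor genes, the deposited enrichment (with 0.5 added), pairs as a block and each library left out. Leaving out both recovery libraries of high background was chosen after seeing the data. Promoter motifs were planned but no promoter sequence was used here.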

Additional observations from a re-analysis of the deposited data

How the results depend on the processing

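The 5 calls over the gene model (fat-1, fat-2 and fasn-1 higher, fat-5 and fat-6 lower) kept their direction under every setting tried, and kept their call in all but the scaling on chemoreceptor genes, where 3 remained called (fat-1, fat-5 and fat-6). Of 877 values of single genes compared, 789 kept direction and side of the threshold, 19 passed only under the alternative, 17 no longer passed and 52 changed sign, none of the last called in the reported fit. Causes were not tested. Depth limits the start windows most, with 0 to 69 reads per ChIP library in the 10 genes.

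The pairs as a replicate block gave 2508 called models with 4H8 alone, 29 for the difference of 4H8 from S2 and 92 for that of 4H8 from 8WG16. It added fat-4 over the gene model, fat-2 in the start window and fasn-1 with 4H8, and changed no other call of the 10 genes.

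Scaling on chemoreceptor genes gave 250 called models with 4H8 and 0 of the 10 genes, 24 for S2 at 12 hr against 6 hr, 17 for 4H8 against S2 and 30 for 4H8 against 8WG16. Signs turned over the gene model for fat-3 (-0.23) and pod-2 (-0.26), in the start window for pod-2 (-0.12), with 4H8 for fat-3 (-0.38) and fat-4 (-0.10), from 6 hr to 12 hr for fat-1 (0.045), and for fat-3 in 4H8 against 8WG16 (-0.071).

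Quantile normalization called 6 of the 10 genes with 4H8, 1 in 5' bias and 1 model for 4H8 against S2. With 4H8 it added fat-6 and pod-2 as lower and fasn-1 as higher. Signs turned over the gene model for pod-2 (-0.36), in 5' bias for fat-2 (0.065), with 4H8 for fat-3 (-0.033) and from 6 hr to 12 hr for fasn-1 (-0.13). They turned in 4H8 against S2 for fat-2 (0.040), fat-6 (0.27), fasn-1 (0.057) and pod-2 (0.057), and in 4H8 against 8WG16 for fat-2 (-0.012), fat-5 (-0.46), fat-6 (-0.31) and fasn-1 (-0.035).

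With no filter on low density 669 models were called in the start window, 388 in 5' bias, 149 with 4H8 (0 of the 10 genes), 4 from 6 hr to 12 hr and 7 for 4H8 against 8WG16. A pseudocount of 1 RPKM called 744 models in 5' bias, 2 from 6 hr to 12 hr and 2 for 4H8 against 8WG16. A pseudocount of 20 RPKM called 1 of the 10 genes in 5' bias and 1 model for 4H8 against S2, and turned the 5' bias of fasn-1 (-0.025) and pod-2 (-0.029). The deposited enrichment gave 1701 called models with 4H8, 60 from 6 hr to 12 hr and 49 for 4H8 against 8WG16. Without both recovery libraries of high background 783 models were called in 5' bias and 1 of the 10 genes in the start window (fat-1), and signs turned for the 5' bias of fasn-1 (-0.089) and sbp-1 (0.14) and with 4H8 for pod-2 (0.22).

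Leaving out a library at a time gave 1765 to 2458 called models over the gene model (lowest without S2 of recovery, and 1784 without S2 of arrest), 793 to 1178 in 5' bias, 557 to 1404 with 4H8 and 1 to 4 of the 10 genes there, 0 to 73 from 6 hr to 12 hr, 0 to 48 for 4H8 against S2 and 0 to 84 for 4H8 against 8WG16. Changes then spanned 0 for pod-2 over the gene model (-0.053 to 0.40), in the start window (-0.0083 to 0.52), with 4H8 (-0.53 to 0.22) and in 5' bias (-0.037 to 0.21), for fat-3 in the start window (-0.49 to 0.071), in 5' bias (-0.56 to 0.015) and with 4H8 (-0.21 to 0.32), and for the 5' bias of sbp-1 (-0.38 to 0.14). The same held in 4H8 against S2 for fat-2 (-0.39 to 0.10), fat-3 (-0.50 to 0.035), fat-5 (-0.76 to 0.026), fat-6 (-0.41 to 0.17), fasn-1 (-0.39 to 0.16) and pod-2 (-0.68 to 0.077), and in 4H8 against 8WG16 for fat-2 (-0.063 to 0.42), fat-3 (-0.26 to 0.27), fat-5 (-0.24 to 0.55), fat-6 (-0.12 to 0.46) and fasn-1 (-0.21 to 0.34).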
